A study of Sus scrofa with 2 samples.

Results

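Small RNA from *longissimus dorsi* muscle (LDM), a glycolytic muscle of the back, was compared with small RNA from *psoas major* muscle (PMM), an oxidative muscle of the loin, for the miRNAs numbered miR-885, miR-184, miR-185, miR-204, miR-139 and miR-423. Every pig entry of the miRNA table with these numbers was taken, whatever its arm, which gave 10 entries from 6 precursors, among 281 pig entries and 668 entries in all. The precursors were selected on their normalised reads in these same libraries, chosen by a high ratio of LDM to PMM in an arm of each, so the ratios below are descriptions and carry no test. Across the 10 entries the label of strongly higher in LDM held only in part. As deposited, 6 were at least 2-fold higher in LDM and 1 was higher by a smaller amount. In 3 the counting interval of the ratio as deposited included 1.

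Both muscles came from female Landrace pigs aged 210 days, kept on the same diet and fasted before slaughter, with no treatment that separated the groups. The study's methods state that RNA of the pigs was pooled in equal parts for each muscle, so there was 1 library per muscle and the spread between animals was not measured. LDM held 8750049 normalised reads and PMM 8556672. The labels' extraction text speaks of adipose tissue, while the tissue labels name muscle. miR-1, miR-133a, miR-133b and miR-206, which define skeletal muscle, together held 685938 RPM (normalised reads per 1000000 of the library) in LDM and 509410 RPM in PMM.

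A miRNA precursor is a hairpin from which the enzyme Dicer cuts a duplex of a 5p arm and a 3p arm. An Argonaute protein keeps mostly a single arm of the duplex, and that arm directs the repression of mRNAs through its seed, bases 2 to 8. Many precursors are cut from introns, so that their level can follow the transcription of a host gene. RefSeq genes of assembly Sscrofa11.1 were searched by name. Since the authors used another build, coordinates are left out. All 6 precursors had a gene and 5 of 6 lay within the span of a protein-coding gene. Strand and introns were not compared and the share over all miRNA genes was not computed, so nothing is read from this count. miR-885 lies within ATP2B2, a plasma membrane calcium pump, and miR-204 within TRPM3, a cation channel. miR-139 lies within PDE2A, a cyclic nucleotide phosphodiesterase, miR-185 within TANGO2, a gene whose loss causes muscle breakdown crises in humans, and miR-423 within NSRP1, a splicing regulator. miR-184 overlaps a long non-coding RNA, LOC106507693.

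The consensus sequences of the 10 entries are shown because their seeds decide which mRNAs each can bind and because the arms of a precursor are compared below. Names carry the prefix ssc for *Sus scrofa* in the table, as in ssc-miR-885-5p, ssc-miR-885-3p, ssc-miR-184-3p, ssc-miR-185-5p, ssc-miR-204-5p, ssc-miR-139-5p, ssc-miR-423-5p and ssc-miR-423-3p, and it is left out below. Capitals mark the seed, and T stands for U as in the table.
miR-885-5p: tCCATTACactaccctgcctct
miR-885-3p: aGGCAGCGgggtgtagtggata
miR-184-3p: tGGACGGAgaactgataagggaa
miR-185-5p: tGGAGAGAaaggcagttcctga
miR-185-3p: aGGGGCTGgctttcctctggt
miR-204-5p: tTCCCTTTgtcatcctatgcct
miR-139-5p: tCTACAGTgcacgtgtctccagt
miR-139-3p: tGGAGACGcggccctgttggagt
miR-423-5p: tGAGGGGCagagagcgagacttt
miR-423-3p: aGCTCGGTctgaggcccctcagt

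The 10 entries had 10 different seeds, so they did not form a seed family. No other entry of the table shared 12 bases in a row with any of them. Only PC-169-5p, a name of the authors, and miR-128-2-5p carried the seed of any of them, that of miR-185-3p, and both were listed at 0 in LDM and 3 reads in PMM. The arms of the 4 precursors listed with both arms formed 19 base pairs with each other in miR-885, 19 in miR-139, 17 in miR-185 and 15 in miR-423, as computed by RNAduplex.

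miR-885 was the most abundant of these precursors in LDM. miR-885-5p, a miRNA studied mainly in human liver and in human tumours, had 18984 normalised reads in LDM and 3746 in PMM. It ranked 20 among all entries in LDM and 59 in PMM. Its level was 5.07-fold higher in LDM (95% interval 4.89 to 5.25). Here and below an interval covers the counting error of 2 libraries and not the difference between pigs. The opposite arm, miR-885-3p, had 729.6 normalised reads in LDM and 283 in PMM, a 2.58-fold higher level in LDM (2.24 to 2.98). Both arms of miR-885 were therefore higher in LDM, by unequal amounts. With bulk RNA, fewer cells of a type that express a miRNA and less of it per cell cannot be told apart.

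miR-184-3p had the widest gap between the muscles. This miRNA is known from the lens and cornea of the eye and from pancreatic beta cells. It had 1174 normalised reads in LDM and 132 in PMM, an 8.89-fold higher level in LDM (7.41 to 10.7). It ranked 77 in LDM and 170 in PMM. Only its 3p arm was listed.

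miR-185-5p, known in mouse and human cells for repressing genes of cholesterol synthesis and uptake, followed at nearly the fold of miR-885-5p but at a far lower level. It had 539 normalised reads in LDM and 107 in PMM, a 5.03-fold higher level in LDM (4.07 to 6.27). miR-185-3p was far lower, with 58.7 normalised reads in LDM (51 reads, rank 191) and 47 in PMM (rank 209). Its ratio of 1.25 (0.823 to 1.90) lay within counting error of 1. As deposited, the high LDM level of this precursor was thus seen beyond counting error in its abundant arm only. The interval of the other arm ended below the fold of the abundant arm. With other scalings the fold of miR-185-3p in favour of LDM reached 1.73, for which no interval was computed.

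miR-204-5p, abundant in the retinal pigment epithelium and known in mouse and human for repressing RUNX2, was listed by its 5p arm only. It had 959 normalised reads in LDM and 352 in PMM, a 2.72-fold higher level in LDM (2.40 to 3.09). Its fold and that of miR-885-3p lay within each other's intervals. No interval of the gap between them was computed, so nothing is read from the order of these neighbours.

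miR-139-5p, studied in human tumours as a miRNA that falls with malignancy, showed a smaller difference. It had 374 normalised reads in LDM and 231 in PMM, a 1.62-fold higher level in LDM (1.36 to 1.92). miR-139-3p was the lowest of the 10 entries, with 27.6 normalised reads in LDM (24 reads) and 34 in PMM, and its ratio of LDM to PMM was 0.812 (0.461 to 1.41). The study lists miR-139 among miRNAs with differing promoter methylation, and no methylation values were used here.

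miR-423, which is present in most tissues, was the only precursor with a dominant 3p arm among the 4 listed with both arms. miR-423-3p had 9692 normalised reads in LDM and 9756 in PMM, a ratio of 0.993 (0.965 to 1.02). These values rest on 8422 reads in LDM and 9756 in PMM. miR-423-5p had 2444 normalised reads in LDM and 1170 in PMM, a 2.09-fold higher level in LDM (1.94 to 2.25). As deposited, the minor arm of miR-423 was therefore higher in LDM and the major arm was level. With 3 other scalings of the libraries the major arm was higher in LDM as well, by up to 1.38-fold, still less than the minor arm.

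**Figure D1:**
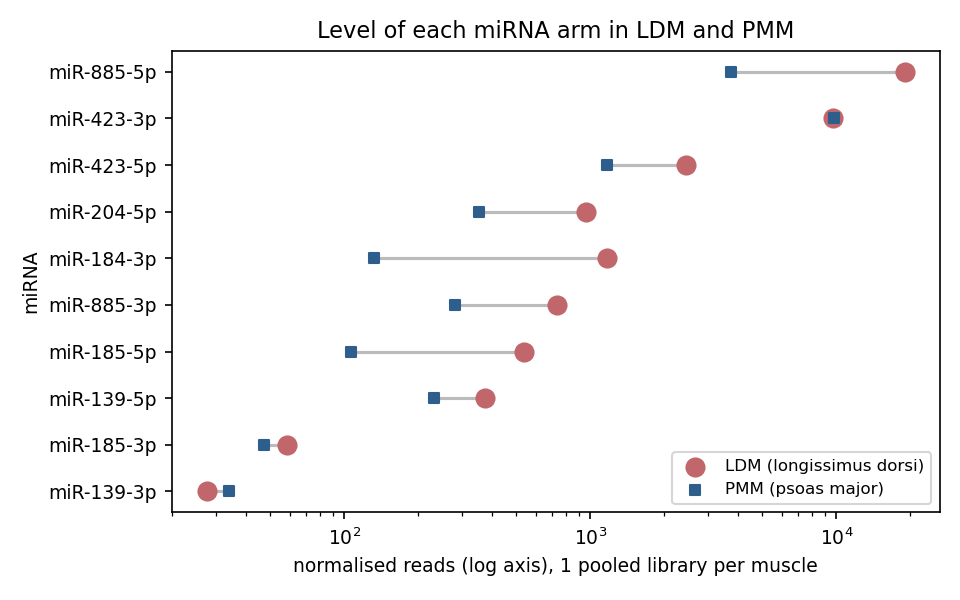
Normalised reads (log axis) of the 10 entries, ordered by mean level, with a circle for the LDM library and a square for the PMM library. The gap is widest for miR-184-3p (1174 against 132), and the marks of miR-423-3p lie on each other (9692 against 9756).

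Summed over the 10 entries, LDM held 34980.2 normalised reads and PMM 15858, or 3998 RPM against 1853 RPM, 2.21-fold more in LDM (2.16 to 2.25). Without miR-423-3p, left out after its values were seen because it is abundant and was level as deposited, the other 9 entries together had 25289 normalised reads in LDM and 6102 in PMM, 4.14-fold more in LDM (4.03 to 4.26), and miR-885-5p made up most of both sums.

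The agreement of arms was looked at through the share of the 5p arm within each library, which does not depend on how the libraries were scaled. In miR-885 the 5p arm took 96.3% of the reads of both arms in LDM (exact Clopper-Pearson 95% interval 96.0 to 96.6) and 93.0% in PMM (92.1 to 93.7). In miR-139 it took 93.1% (89.9 to 95.5) and 87.2% (82.5 to 90.9). In miR-185 the share was 90.2% in LDM (87.3 to 92.6) and 69.5% in PMM (61.6 to 76.6). In miR-423 it was 20.1% (19.4 to 20.9) against 10.7% (10.1 to 11.3). The 5p arm therefore took a larger share in LDM than in PMM in 4 of 4 precursors, and the dominant arm was the same in both muscles.

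**Figure D2:**
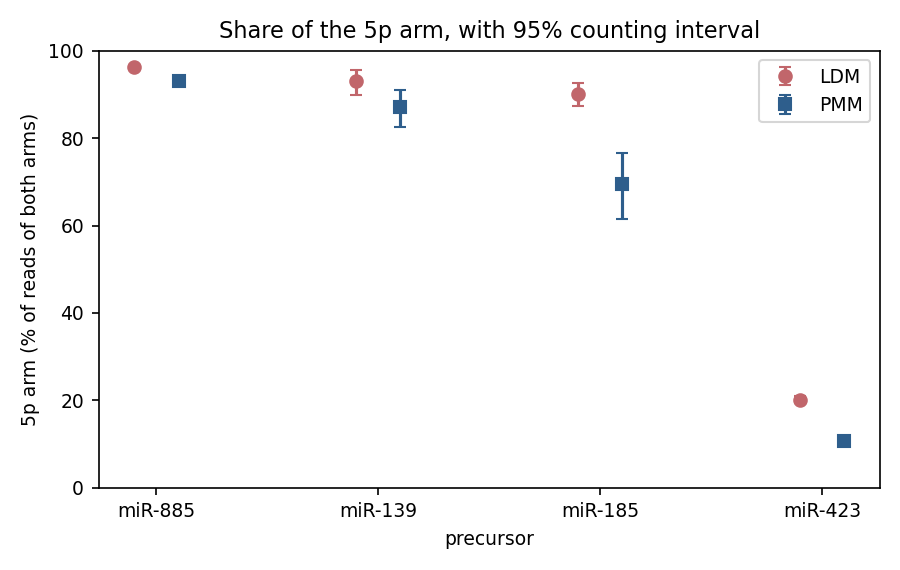
Share of the 5p arm (% of the reads of both arms) in the 4 precursors with both arms listed, with 95% counting intervals, in LDM (circles) and PMM (squares). The share is higher in LDM in each precursor, from 96.3% against 93.0% in miR-885 to 20.1% against 10.7% in miR-423.

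The ratio of 5p to 3p reads in LDM was 4.03 times that in PMM for miR-185 (exact conditional 95% interval 2.50 to 6.46), 2.10 times for miR-423 (1.95 to 2.27), 1.99 times for miR-139 (1.11 to 3.61) and 1.97 times for miR-885 (1.69 to 2.28). For miR-423, miR-139 and miR-885 these values lay within each other's intervals. Over all 96 arm pairs of pig miRNAs listed above 0 in both libraries, the 5p arm was the more LDM-biased in 56.2%, and the interval excluded 1 in 51% of pairs. In log2 ratio of PMM to LDM, with a pseudocount of 1 RPM, the 5p arm lay below the 3p arm by 1.97 in miR-185, the most negative of the 96 pairs, and the difference was −1.07 in miR-423, −0.999 in miR-885 and −0.91 in miR-139. Arms more than 1 apart were found in 2 of these 4 precursors and in 22.9% of the 96 pairs, and arms of opposite sign in 2 of the 4, miR-139 and miR-423, and in 36.5% of the pairs. These opposite signs rest on miR-423-3p and miR-139-3p, whose ratios as deposited lay within counting error of 1. Opposite signs held in 0 of the 4 precursors after centring, against 37.5% of the 96 pairs. Without the 10 highest entries they also held in 0 of the 4, against 41.7% of the pairs. With a trimmed mean of log ratios they held in 1 of the 4, against 44.8% of the pairs. The median size of the difference was 0.55 over the 96 pairs and 0.53 over the 92 pairs of other precursors. Since the precursors were chosen for an arm that was high in LDM, an opposite arm nearer to 1 follows in part from that choice, and nothing is read from the direction they share.

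**Figure D3:**
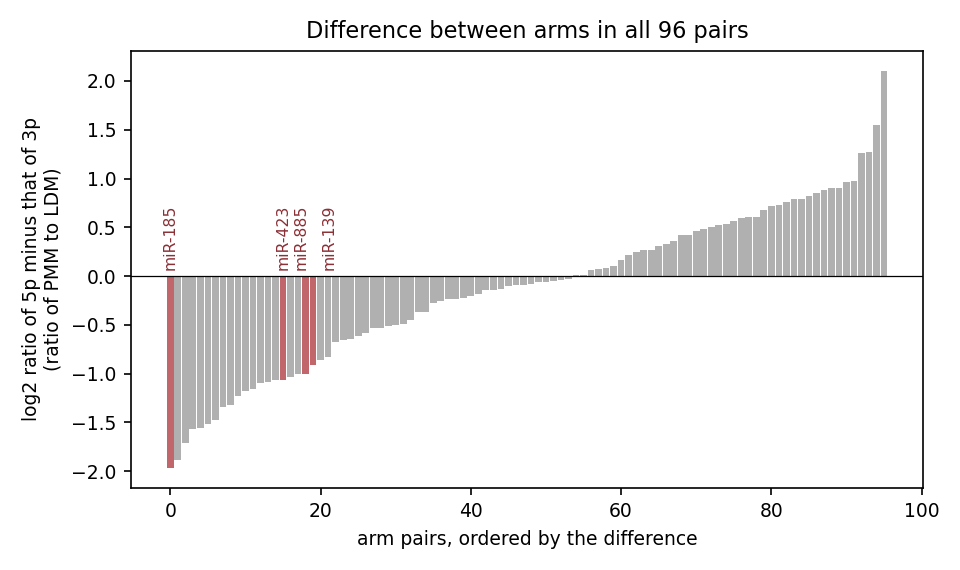
Difference in log2 ratio of PMM to LDM between the 5p and 3p arm in 96 pairs, ordered from most negative to most positive, with the 4 named precursors in red. They lie at −1.97 (miR-185), −1.07 (miR-423), −0.999 (miR-885) and −0.91 (miR-139), on the side where the 5p arm is the more LDM-biased.

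The entries were then set among all miRNAs of the libraries. Of the 10, 8 had a mean of at least 10 RPM, and these 8 reached 10 RPM in PMM alone as well, so none passed only through its level in LDM. On the log2 scale with its pseudocount, 6 of the 8 were at least 2-fold higher in LDM, against 12 of all 185 entries at that level (6.49%). None was at least 2-fold higher in PMM, where 21.6% of the 185 entries were. Because those ratios chose the precursors, the difference in shares is not a result. The median log2 ratio of PMM to LDM was −1.38 for the 8 entries and 0.35 for the 185 as deposited. The choice of precursors fixed that gap and nothing is read from it, and the sign of the second value depends on the scaling. Of the 185 entries, 28.6% were higher in LDM by any amount as deposited.

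The other 6 entries at least 2-fold higher in LDM were miR-181a-1-3p, miR-628-5p and 4 with names given by the authors, PC-48-3p, PC-299-5p, PC-289-5p and PN-2-5p. PC-48-3p and PC-299-5p had 197 and 177 reads in LDM and 0 in PMM. They reached a mean of 10 RPM only through LDM, and their gaps were wider than that of miR-184-3p. Just inside the 2-fold limit was miR-423-5p with a log2 ratio of −1.06, and the nearest of the 8 outside it was miR-139-5p with −0.68. Among the 91 entries whose mean reached 100 RPM, and leaving out those of the 6 precursors, the ratio most like that of miR-885-5p (log2 −2.34) was that of miR-181a-1-3p (−1.82), a distance of 0.51, followed by PC-289-5p (−1.74, distance 0.60) and miR-181a-5p (−0.94, distance 1.40). With 2 libraries, likeness is only the distance between single ratios. miR-181a-1-3p had 1478 normalised reads in LDM and 411 in PMM, and PC-289-5p had 1738 and 513. PC-289-5p is shown because its name says nothing of what it is, with its bases 2 to 8 in capitals.
PC-289-5p: tCCCCAGCtttctcagatccc

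**Figure D4:**
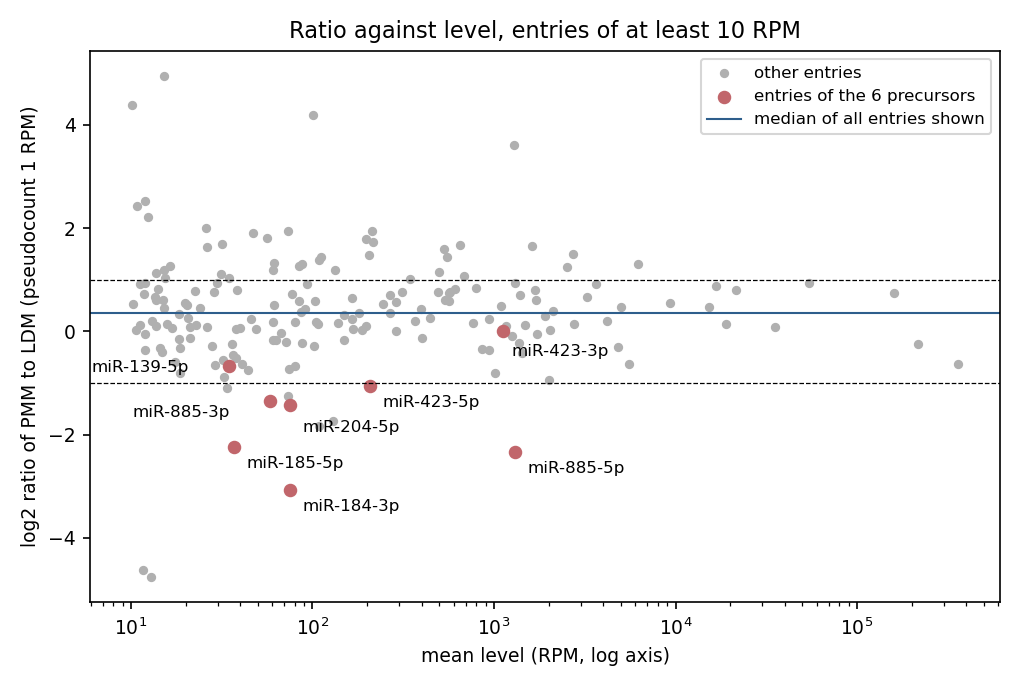
Log2 ratio of PMM to LDM (pseudocount 1 RPM) against mean level (RPM, log axis) for the 185 entries that reach 10 RPM, with 8 named entries in red, dashed lines at 2-fold and a line at the median of 0.35. miR-184-3p, miR-885-5p and miR-185-5p lie below −2, and miR-423-3p lies at 0.0096.

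How far the values rest on the scaling of the libraries was looked at next, since miR-1-3p and a few other miRNAs hold most reads. Centring used the median log2 ratio of the 91 entries that reach 100 RPM, which was 0.47 as deposited. Centring on that median moved every ratio by −0.47 on the log2 scale before the pseudocount. The total without the 10 highest entries moved every ratio by −0.38, a trimmed mean of log ratios by −0.27 and the library total by 0.03. The fold of miR-184-3p in favour of LDM ranged from 8.70 to 12.3 over these scalings and the values as deposited. The range was 4.96 to 7.03 for miR-885-5p, 4.92 to 6.98 for miR-185-5p, 2.66 to 3.78 for miR-204-5p, 2.52 to 3.57 for miR-885-3p, 2.04 to 2.90 for miR-423-5p and 1.58 to 2.24 for miR-139-5p. miR-139-5p passed 2-fold when centred and when the 10 highest entries were left out of the total. miR-423-3p ranged from 0.971 to 1.38 and miR-139-3p from 0.794 to 1.13, so neither had a fixed direction, while miR-185-3p stayed higher in LDM (1.22 to 1.73).

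**Figure D5:**
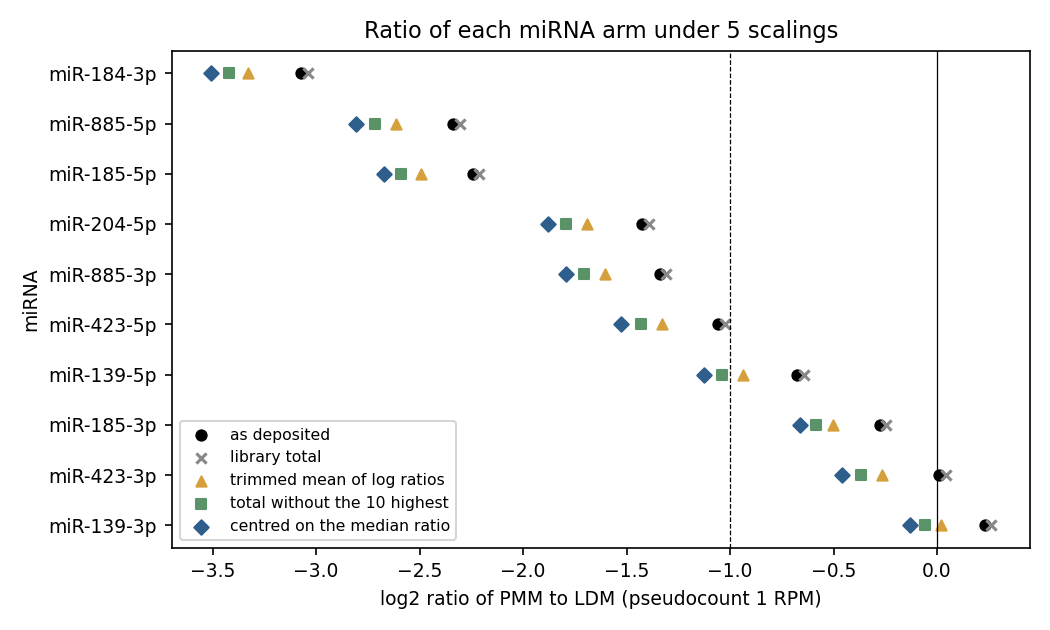
Log2 ratio of PMM to LDM (pseudocount 1 RPM) of the 10 entries under 5 scalings, with lines at 0 and at 2-fold higher in LDM. miR-184-3p, miR-885-5p, miR-185-5p, miR-204-5p, miR-885-3p and miR-423-5p stay beyond the 2-fold line under each scaling, and miR-423-3p and miR-139-3p change sides of 0.

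Other miRNA lists gave a background for these entries. As deposited, none of the 5 muscle-enriched entries of at least 10 RPM (miR-1, miR-133a, miR-133b, miR-206) reached 2-fold in either direction, and their median log2 ratio of PMM to LDM was −0.24. After centring or without the 10 highest entries, miR-1-3p was at least 2-fold higher in LDM. Among miRNAs that lie in genes for myosin, miR-499 and miR-208b were found of 3 numbers looked for and had 2 entries at that level, of which 1 was at least 2-fold higher in PMM, with a median of 2.18. Of the miRNAs reported in the energy metabolism of muscle, miR-378, miR-23a, miR-23b, miR-365 and miR-149 were found of 7 numbers and had 7 entries at that level, with 0 at least 2-fold higher in LDM, 1 at least 2-fold higher in PMM and a median of 0.21 as deposited. After centring that median was −0.23, and miR-149-5p and miR-23a-3p were at least 2-fold higher in LDM, as they were without the 10 highest entries. With a trimmed mean of log ratios the median was −0.046 and miR-23a-3p alone passed. The row of miR-23a-3p in that list is doubtful, since it alone does not hold whole reads. The study named miR-499, miR-208b and miR-378 from these libraries, so their direction is not independent evidence.

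Markers of other cells were summed, because several of the 10 entries are known mainly from tissues other than muscle. Epithelial miRNAs, of which miR-205 and miR-429 were found among 7 looked for, held 3.68 RPM in LDM and 1.64 RPM in PMM, against 134 RPM and 15.4 RPM for miR-184-3p alone. miR-205-5p had 28 reads in LDM and 11 in PMM, and miR-429-3p was listed at 0 in LDM and 3 reads in PMM. Nerve miRNAs, with 4 of 7 numbers matched exactly, held 291 RPM in LDM and 321 RPM in PMM, most of it miR-128-3p. The exact match for miR-129 left out miR-129a and miR-129b, which are listed with a letter and few reads. Of these, miR-129b-3p had 17 reads in LDM and 16 in PMM (log2 −0.19 as deposited). Their shared 5p entry (15 and 24 reads) and miR-129a-3p (5 and 13) were higher in PMM. Liver miRNAs, with 3 of 3 found, held 5.66 and 10.5 RPM. The endothelial marker miR-126 held 1345 RPM in LDM and 2734 RPM in PMM, and 3 of 4 fibroblast numbers held 2703.5 and 5789 RPM. Leukocyte miRNAs, with 3 of 4 numbers found, held 117 and 214 RPM, miR-451 of red blood cells 853 and 1027 RPM, and miR-143 and miR-145 of smooth muscle 17029 and 29261 RPM. The endothelial, fibroblast, leukocyte, smooth muscle and liver sums were higher in PMM under all 5 scalings, and the epithelial sum was higher in LDM under all 5. The nerve and red blood cell sums were higher in PMM as deposited and by library total, and higher in LDM under the other 3. Their summed ratios of PMM to LDM were 0.778 and 0.849 after centring. Within the nerve list, miR-128-3p and miR-128-1-5p were then higher in LDM (log2 −0.46 and −0.26). Every other entry in the nerve sum, which lacks miR-129a and miR-129b, was higher in PMM, most of all miR-9-5p (1.78, 28 reads in LDM and 182 in PMM). Within the smooth muscle list, miR-145-5p and miR-143-5p were higher in LDM after centring (−0.35 and −0.19), and miR-143-3p and miR-145-3p in PMM (0.32 and 0.17). The part of epithelial cells in the levels of miR-184-3p and miR-204-5p was not tested.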

How the data were processed

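The authors deposited a table of 668 miRNA entries, each with a consensus sequence, its length and a value per muscle. Per the file headers these are normalised reads, which were handled as a signal. The submitters' processing notes name genome build Sscrofa 10.2. The mapper, miRNA reference and normalisation method are not given in the sources used here. LDM values were whole multiples of 1.15 units and PMM values whole numbers in 667 of 668 rows (tolerance 0.001), the exception being miR-23a-3p, so reads were taken as LDM values divided by 1.15 (7603850 reads) and PMM values as they stand. The smallest values above 0 were 3 reads. The deposited sum and p-value columns hold the authors' own comparison by a Fisher test and were not used.

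RPM are normalised reads per library total of 1000000. Folds carry no pseudocount. Log2 ratios are of PMM to LDM, with 1 RPM (8.65 units) added to both, which understates changes of low entries. Entries whose mean reached 10 RPM were counted at a 2-fold limit. With 1 library per muscle no test was possible and no count model was run. Ratios have an exact conditional binomial 95% interval, shares an exact Clopper-Pearson interval and arm ratios an exact conditional interval of the odds ratio. Reads carried no molecular identifiers, so intervals cover counting error only. Scalings, pseudocounts, filters and fold limits were varied. The rule named every entry of the 6 precursors, entries sharing their seed or sequence, and the 3 entries of at least 100 RPM nearest in ratio to miR-885-5p. The precursors and lists were chosen with earlier results of these data known. Host genes were found by name in RefSeq (Sscrofa11.1). The intervals and 2-fold counts were tested on simulated data that held counting error only, which says nothing of the spread between pigs. The software was ViennaRNA 2.7.2, scipy 1.17.1, numpy 2.4.6, pandas 2.3.3 and matplotlib 3.10.9 under Python 3.11.15.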

Additional observations from a re-analysis of the deposited data

How the results depend on the processing

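How many of all entries keep their direction was not computed, and the precursors were chosen for a high ratio. Nothing is therefore read from the count that follows. Of the 10 entries, 8 kept their direction under every scaling and pseudocount run. Among these was miR-185-3p, whose ratio as deposited lay within counting error of 1. The exceptions were miR-423-3p, with a log2 ratio of PMM to LDM of −0.46 after centring, −0.26 with the trimmed mean of log ratios and −0.37 when the 10 highest are left out of the total, and miR-139-3p, with −0.13 after centring and −0.059 with that total. The count of 6 entries at least 2-fold higher in LDM became 7 after centring, without the 10 highest and at a 1.5-fold limit. It became 3 at a 4-fold limit. Among entries that reach 100 RPM it became 2, where of the 10 only miR-885-5p, miR-423-3p and miR-423-5p remain. The count of 12 over all entries became 26 after centring, 23 without the 10 highest and 17 with the trimmed mean of log ratios. It became 25 at 1.5-fold and 5 at 4-fold, of the same 185 entries. With no filter it became 35 of 668 entries, and at 100 RPM it became 4 of 91. Among pig entries alone it became 8, of fewer entries. As the totals differ, these last 3 counts cannot be set directly against the 12. The median log2 ratio of −1.38 became −1.84 after centring, −1.65 with the trimmed mean, −1.75 without the 10 highest, −1.20 with a pseudocount of 10 RPM or with no filter, −1.06 for entries that reach 100 RPM and −1.83 with 1 entry per precursor. The first 3 scalings multiply every PMM value by a factor under 1, so every ratio falls by the way they are built. The remaining changes of the median also follow from how the settings are built. A larger pseudocount draws every ratio towards 0, and with no filter miR-185-3p and miR-139-3p enter. The median at 100 RPM is the value of miR-423-5p, and 1 entry per precursor leaves out an arm of each pair. The difference between arms moved by less than its counting interval with other pseudocounts or none, the last chosen after seeing the data. Depth limits miR-185-3p and miR-139-3p, which had 24 to 51 reads per library. No paired analysis was possible because there was 1 library per muscle.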

Other observations

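The nearest other miRNA gene to miR-185 in the RefSeq table, miR-1306 within 50 kb, was low in both muscles. miR-1306-5p had 17 reads in LDM and 5 in PMM and was 3.91-fold higher in LDM (1.39 to 13.6). It was chosen after its values were seen.

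The starts of the sequences were compared after they had been seen. Of the 10 entries, 7 began with T, against 39.1% of the 281 pig entries. At 10 RPM or more, 6 of 8 began with T, against 47.6% of all 185 entries at that level. miR-184-3p, miR-185-5p and miR-139-3p began with TGGA, as did 7 pig entries in all (2.49%). These 7 had log2 ratios of PMM to LDM from −3.07 in miR-184-3p to 0.47 in miR-206-3p, with miR-1-3p at −0.64. The GC content of the 10 entries ran from 45.5% to 65.2% with a median of 54.3%, against a median of 47.6% over pig entries. At 10 RPM or more the medians were 51.1% for the 8 and 45.8% for the 185 entries. Across the 185 entries of at least 10 RPM, which share the 2 libraries, GC content and log2 ratio correlated with r = −0.07 (Pearson) and rho = −0.11 (Spearman).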
